A study of Arabidopsis thaliana with 12 samples.

Results

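The repressing auxin response factors of Arabidopsis thaliana were examined as a group of 10 genes fixed by identifier: ARF1 (AT1G59750), ARF2 (AT5G62000), ARF3 (AT2G33860), ARF4 (AT5G60450), ARF9 (AT4G23980), ARF10 (AT2G28350), ARF11 (AT2G46530), ARF16 (AT4G30080), ARF17 (AT1G77850) and ARF18 (AT3G61830). All 10 were present in both deposited tables, which list 28642 genes. RNA came from the first leaf pair of seedlings at 10 days after stratification, labelled as the proliferation stage, and the groups were 25 mM mannitol, 0.1 µM NAA, 0.1 µM NAA with 25 mM mannitol, and control medium, with 3 biological replicates in each of the 4 groups. All plants grew on half-strength Murashige and Skoog medium, with nothing added for the control group. Mannitol at this dose is used as a mild osmotic stress, and NAA (1-naphthaleneacetic acid) is a synthetic auxin. The labels give no genotype beyond the species.

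Auxin response factors are transcription factors that bind auxin response elements in promoters. Members of the repressing class are thought to hold target genes down, in part by recruiting TOPLESS family corepressors, while the activating class switches auxin genes on when auxin removes the Aux/IAA repressors. Transcripts of the repressing class are also a textbook case of control by small RNAs: miR160 directs cleavage of ARF10, ARF16 and ARF17 transcripts, and small interfering RNAs made from the noncoding TAS3 transcript direct cleavage of ARF2, ARF3 and ARF4 transcripts. In leaves, ARF3 and ARF4 specify the lower (abaxial) side and ARF2 restrains organ size.

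The sites that divide the 10 genes into these classes were found by searching the RefSeq TAIR10.1 transcripts, and they are shown because they mark the classes of small RNA control to which the members belong. The 3 MIR160 loci share 1 mature 5′ arm, written here in DNA letters with the seed (bases 2 to 8) in capitals.
miR160: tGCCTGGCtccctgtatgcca
Its sites in the coding sequences follow, with bases that pair with miR160 in capitals and mismatches in lower case.
ARF17 site: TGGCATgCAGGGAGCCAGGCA
ARF10 site: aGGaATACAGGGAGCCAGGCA
ARF16 site: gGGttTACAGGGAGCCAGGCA

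The ARF17 site had 1 mismatch and lies at chr1:29274189-29274209 on the plus strand, in exon 2 of 2. The ARF10 site had 2 mismatches (chr2:12115741-12115761, plus strand, exon 2 of 4). The ARF16 site had 3 (chr4:14704141-14704161, minus strand, exon 3 of 4). Only strict Watson-Crick pairs were counted as paired. Of 27444 protein-coding genes scanned, 1 transcript each, these 3 were the only ones with a miR160 match of at most 3 mismatches (0.0109%).

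For TAS3 (AT3G17185), 21-base windows were counted upstream from the cut that the 3′ miR390 site sets. This register was computed from the sequence, not measured. Of 10 windows scanned, D7(+) and D8(+), the seventh and the eighth, had matches of at most 4 mismatches among the auxin response factor genes, at the same sites. D7(+) is shown, with its bases 2 to 8 in capitals, because it had at most 3 mismatches at every one of them.
TAS3 D7(+): tCTTGACCttgtaagacccca
The sites below have bases that pair with D7(+) in capitals.
ARF2 site: aaGGGTCTTgCAAGGTCAAGA
ARF3 first site: gaGGGTCTTgCAAGGTCAAGA
ARF3 second site: TaaGGTCTTgCAAGGTCAAGA
ARF4 first site: TaaGGTCTTgCAAGGTCAAGA
ARF4 second site: aaGGGTCTTgCAAGGTCAAGA

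Each of these 5 sites had 3 mismatches with D7(+). ARF2 carried 1 site (chr5:24913260-24913280, plus strand, exon 12 of 15). ARF3 carried 2 (chr2:14325943-14325963 and chr2:14325823-14325843, minus strand, exon 10 of 10), and ARF4 carried 2 (chr5:24309719-24309739 and chr5:24309509-24309529, minus strand, exon 10 of 12). The first ARF4 site and the second ARF3 site were identical over all 21 bases, and so were the ARF2 site and the second ARF4 site. In the whole scan 5 genes had a D7(+) match of at most 3 mismatches (0.0182%), ARF2, ARF3 and ARF4 among them. D8(+) had 4 mismatches at the first ARF3 site and 3 at the other sites, and 6 genes in the scan matched it at that limit (0.0219%). ARF1, ARF9, ARF11 and ARF18 had no match to miR160, D7(+) or D8(+) at that limit. All sites began between bases 1308 and 1572 of the coding sequence, as the map of sites shows.

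**Figure D1:**
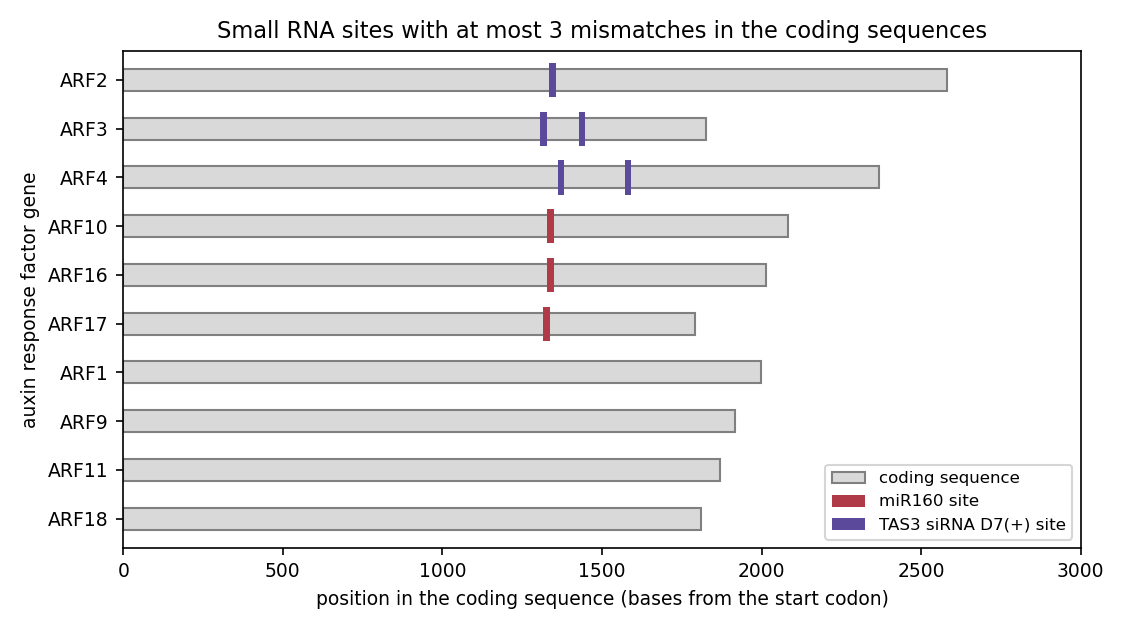
Coding sequences of the 10 genes (grey bars, length in bases from the start codon, longest RefSeq TAIR10.1 coding sequence) with sites of at most 3 mismatches to miR160 (red) and to the TAS3 siRNA D7(+) (purple). The 3 miR160 genes carry 1 site each, ARF2 carries 1 TAS3 site, ARF3 and ARF4 carry 2 each, and the other 4 genes carry none.

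What the tables give for each gene is a p-value for each of the 3 treated groups against control. The file headers call it a detection p-value and name no test. It has no direction and no size, so whether a transcript was higher or lower in a treated group is not stated for any gene. Columns of single libraries carry names that match no sample label, so levels, replicate spread, depth and the leaf identity of the samples are not analysed here. Because the tissue is bulk leaf, fewer cells of a type and less RNA per cell cannot be told apart. A gene is said to pass at a Benjamini-Hochberg adjusted p under 0.05 over all genes, and percentiles of p run upward from 0 at the smallest p in the table. None of the 10 genes had a p of 1 in all 3 comparisons, as 6422 genes of the table did.

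Across the 3 comparisons, 4 of the 10 repressing factors passed at least once: ARF1, ARF2, ARF4 and ARF18. Under NAA these 4 passed, with both compounds ARF1 and ARF2 passed, and under mannitol 0 passed. ARF3, ARF9, ARF10, ARF11, ARF16 and ARF17 passed in none. None of the 10 passed in all 3 comparisons. The sources do not say whether the deposited values were already adjusted. Taken as they stand at 0.05, ARF2 passes under mannitol, the same 4 genes under NAA, and ARF1, ARF2 and ARF4 with both compounds. Bonferroni adjustment kept ARF18 under NAA and ARF2 with both. Each p was also converted to a normal z and read from a t distribution with 4 degrees of freedom. No member call held after adjustment of that reading. With a p of 0 set at its lowest z, 0 genes of the whole table passed in any comparison. At its highest z, 79 (mannitol), 83 (NAA) and 610 (both) passed. The loss is therefore not particular to the members, and this reading cannot set them apart from other genes.

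Leaves on mannitol were compared with control leaves to find transcripts that respond to mild osmotic stress. Of the repressing factors 0 of 10 passed, against 9.07% of all genes and 12.2% of genes whose p was below 1 throughout. ARF2, the organ size regulator, had the smallest value of the 10 members in the authors' deposited table (p = 0.0308). It was the 1 member under an unadjusted 0.05. After Benjamini-Hochberg adjustment of the authors' deposited table its p was 0.205. ARF4 came next (p = 0.0967 before and 0.422 after adjustment of the authors' deposited table). The members' percentiles ran from 15 (ARF2) to 50.9 (ARF9), with a median of 34.2, where all genes have a median of 50. That median of 50 includes the 6422 genes with a p of 1 in all 3 comparisons, so it is not a matched reference for the members. No member thus lay among the smallest p-values under mannitol, nor among the genes near a p of 1.

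Leaves on NAA were compared with control leaves to find transcripts that respond to supplied auxin, and here the most members passed. Of the 10 genes 4 passed, against 12.8% of all genes and 17.4% of genes whose p was below 1 throughout. ARF18 had the smallest p (2.28e-07 in the authors' deposited table, 8.49e-06 after adjustment), at percentile 2.69. In Brassica napus, an ARF18 gene is known to affect seed weight. ARF1, which acts with ARF2 in senescence and floral organ abscission, had a p of 0.000739 (adjusted p = 0.00883 from the authors' deposited table).

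ARF4 and ARF2 lay next to each other under NAA. ARF4 stood at 0.000972 before adjustment and 0.011 after it, from the authors' deposited table. ARF2 stood at 0.000985 and 0.0111, also from the authors' deposited table. ARF9 was the nearest member that did not pass (p = 0.0732, adjusted p = 0.298 from the authors' deposited table). Of the 3 miR160 genes, ARF17 stood at 0.0966, ARF10 at 0.721 and ARF16 at 0.945 in the authors' deposited table before adjustment. ARF3, the third gene with TAS3 sites, stood at 0.337 in the authors' deposited table before adjustment, and ARF11 at 0.678. The 4 genes that passed lay between percentiles 2.69 and 8.87 and the other 6 between 24.6 and 72.6, with a median of 25.6 over all 10.

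**Figure D2:**
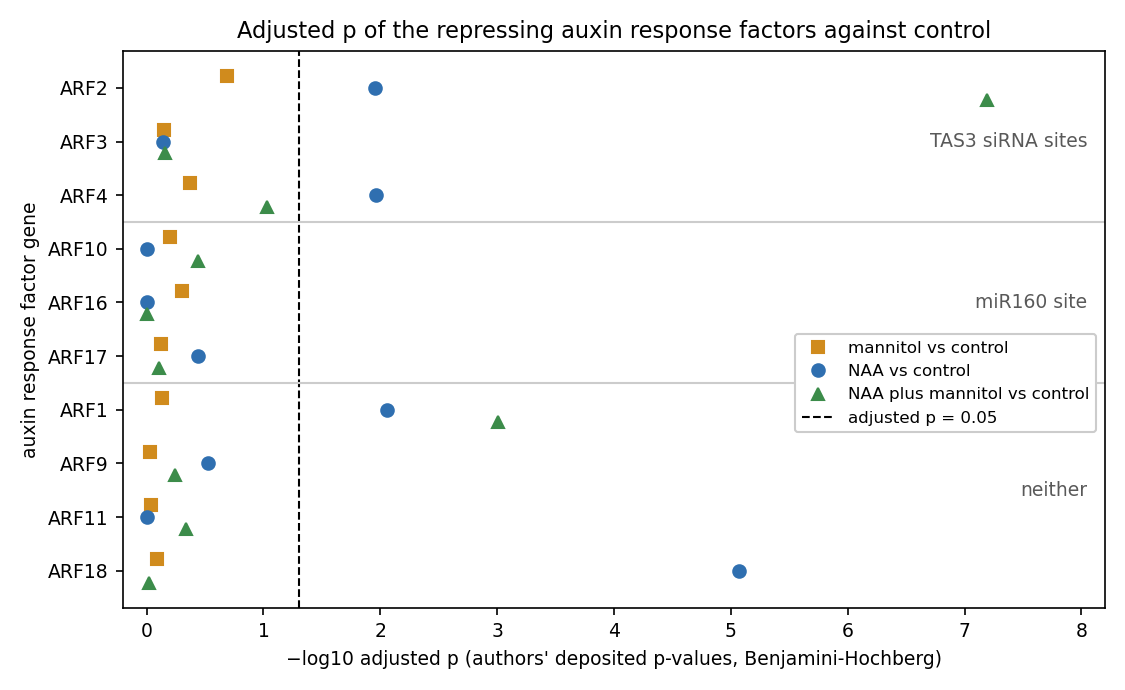
Adjusted p of each repressing factor (rows, grouped by small RNA site) on a −log10 axis, 1 marker for each treated group against control; markers right of the dashed line pass at an adjusted p under 0.05. ARF18, ARF1, ARF4 and ARF2 pass under NAA, ARF2 and ARF1 with both compounds, and no marker for mannitol or for a miR160 gene lies right of the line.

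The combined treatment was set against control to ask what both compounds together change. It had 2 of 10 members passing, against 26.3% of all genes and 35.2% of genes whose p was below 1 throughout. ARF2 was lowest of the 10 members in the authors' deposited table (p = 3.26e-09, adjusted p = 6.38e-08), at percentile 5.11 of all genes. ARF1 had 0.000131 (adjusted p = 0.000983 from the authors' deposited table), at percentile 13.4. ARF4 was the nearest member that did not pass, at 0.0283 before and 0.0935 after adjustment of the authors' deposited table.

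ARF18, with the smallest member p under NAA, had a p of 0.63 with both compounds (adjusted p = 0.953 from the authors' deposited table). Such a pattern was common in the table: of the 3669 genes that passed under NAA, 1424 (38.8%) did not pass with both compounds. Whether the response of ARF18 or ARF4 differed between NAA alone and NAA with mannitol was not tested, since a p-value against a shared control gives no difference between the treated groups. ARF10 (p = 0.157), ARF11 (0.213), ARF9 (0.318), ARF3 (0.407), ARF17 (0.478) and ARF16 (0.728) completed the list in the authors' deposited table with both compounds. The median percentile of the 10 genes was 50.8, beside 50 for all genes. Here too the 50 is not a matched reference, since it includes the 6422 genes with a p of 1 in all 3 comparisons.

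Sorted by small RNA site, genes that passed came from the TAS3 class and from the class with neither site. Of the 3 genes with TAS3 sites, 0 passed under mannitol, 2 under NAA (ARF2 and ARF4) and 1 with both compounds (ARF2). Of the 3 miR160 genes, 0 passed in any comparison, and their smallest adjusted p-values from the authors' deposited table were 0.496 (mannitol), 0.362 (NAA) and 0.362 (both). At an unadjusted 0.05 in the authors' deposited table, too, 0 of them passed. Of the 4 genes with neither site, 0 passed under mannitol, 2 under NAA (ARF1 and ARF18) and 1 with both compounds (ARF1). With 9.07% (mannitol), 12.8% (NAA) and 26.3% (both) of all genes passing, a count of 0 among 3 genes says nothing particular to a class, and the difference between these classes of 3 and 4 genes was not tested.

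Close relatives did not share their calls throughout. Whether the genes of a pair differed in their response was not tested, since a p-value against control gives no difference between genes. When each repressing factor was aligned with the other repressing and the 5 activating factors, the highest identity was between ARF11 and ARF18, with 76.6% of the bases of the shorter one identical, and under NAA ARF11 stood at 0.678 and ARF18 at 2.28e-07 before adjustment in the authors' deposited table. ARF9, known for a role in the early embryo, had ARF18 as its closest relative (61.2%). ARF1 and ARF2 were each other's closest relatives (62%) and both passed under NAA and with both compounds. ARF3 and ARF4 were also a reciprocal pair (56.6%), of which ARF4 passed under NAA. ARF18 came close behind as the second relative of ARF2 (61.6%) and of ARF4 (56.1%), so these pairings rest on narrow margins. ARF10 and ARF16, which act in root cap development, formed another pair (59.2%), and neither passed in any comparison. None of the 10 genes shared a run of 50 transcript bases with another annotated gene.

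ARF1 overlaps a gene on the opposite strand, AT1G59760. The library kit keeps the strand, per the labels, but the strand setting of the counting is not given in the sources used here. In the authors' deposited table AT1G59760 did not pass under NAA (adjusted p = 0.179) and passed with both compounds (0.00667). Its part in the ARF1 values was not tested. The other 9 members overlap no annotated gene.

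The rest of the pathway was read from the same table, and the counts of its lists stand beside the 9.07% (mannitol), 12.8% (NAA) and 26.3% (both) of all genes that passed. Among the 5 activating factors, 1 passed on mannitol, 1 on NAA and 3 on both. All 5 had a p below 1 throughout, and of all such genes 12.2%, 17.4% and 35.2% passed in these comparisons. ARF6, which promotes stem and flower growth together with ARF8, passed in all 3, with adjusted p-values of 2.08e-06 under mannitol and 0.0236 under NAA from the authors' deposited table, and it was listed at a p of 0 with both. ARF5 (MONOPTEROS, required for vein formation; adjusted p = 0.000119 from the authors' deposited table) and ARF7 (a regulator of tropic growth; 1.34e-05) passed with both compounds. ARF8 and ARF19 passed in none. Median percentiles of the repressing and the activating factors were 34.2 and 32.9 on mannitol, 25.6 and 21.5 on NAA, and 50.8 and 10.2 on both, and the difference between the classes was not tested. Of 8 further ARF genes clustered on chromosome 1, 0 passed in any comparison and 7 had a p of 1 in all 3.

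TOPLESS family corepressors are recruited by repressing factors and Aux/IAA proteins. Of the 5 genes, 1 passed on mannitol, 3 on NAA and 3 on both, where 9.07%, 12.8% and 26.3% of all genes did. All 5 had a p below 1 throughout, and of all such genes 12.2%, 17.4% and 35.2% passed. The difference between the list and these shares was not tested. TPR2 passed in all 3 comparisons, at adjusted p-values from the authors' deposited table of 0.0417 (mannitol), 0.0142 (NAA) and 2.85e-13 (both compounds). TPL passed under NAA (adjusted p = 0.00644 from the authors' deposited table) and with both compounds (2.04e-05), and so did TPR1 (0.0302 and 0.00013). TPR3 and TPR4 passed in none.

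Genes of the small RNA route had 2 of 12 past the threshold on mannitol, 2 on NAA and 4 on both. Over all genes the shares were 9.07%, 12.8% and 26.3%. Only 7 of the 12 had a p below 1 throughout, and every gene that passed was among these 7. Of all genes whose p was below 1 throughout, 12.2%, 17.4% and 35.2% passed. The difference between these shares and the list was not tested. AGO1, the Argonaute that carries miR160, passed in all 3 (0.000484 for mannitol, 2.25e-10 for NAA and 0.00801 for both compounds, adjusted from the authors' deposited table). RDR6, which makes TAS3 RNA double-stranded, also passed in all 3 (0.0442 for mannitol, 0.00179 for NAA and 0.000322 for both compounds, adjusted from the authors' deposited table). TAS3 itself passed with both compounds (adjusted p = 0.0174 from the authors' deposited table) and not under mannitol (0.665) or NAA (0.657). DRB4, a partner of the Dicer that cuts TAS3 RNA, likewise passed with both compounds (6.9e-10) and not under mannitol (0.366) or NAA (1), in the authors' deposited table after adjustment. AGO7, SGS3 and DCL4 passed in none. The 5 MIR160 and MIR390 genes had a p of 1 in all 3 comparisons, as 6422 genes of the table did. The reason for this was not tested. Poly(A) libraries are not made to hold mature short RNAs, so nothing is given for miR160 or miR390 themselves.

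**Figure D3:**
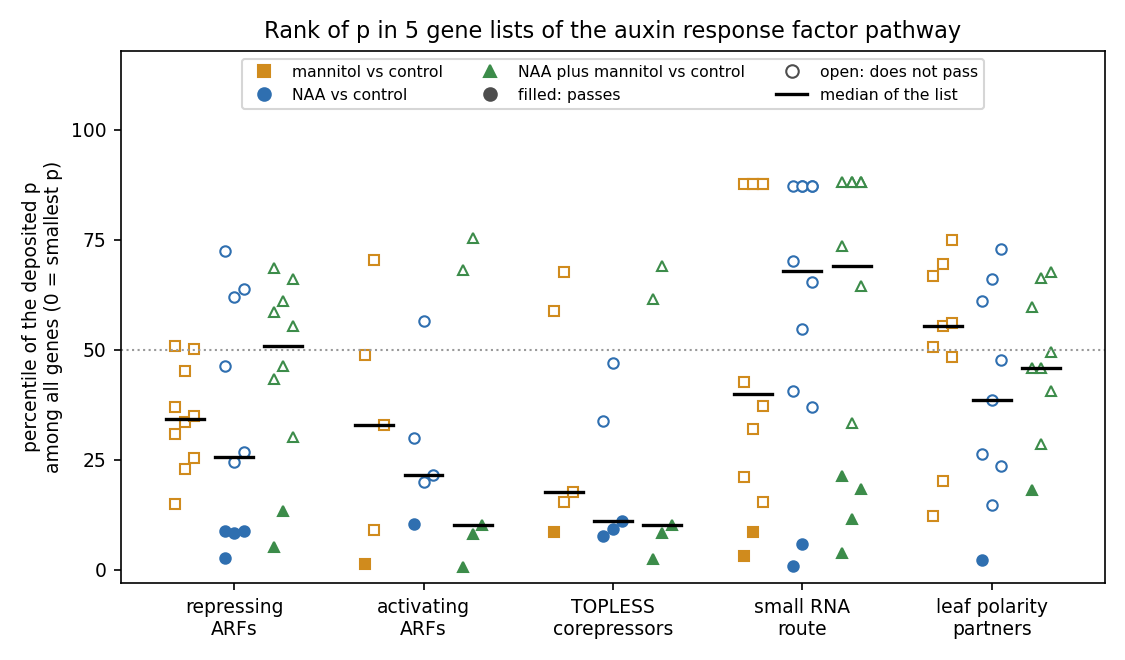
Percentile of the deposited p among all genes (vertical axis, 0 is the smallest p) for the genes of 5 lists, 1 marker a gene and comparison, filled where the gene passes, with the list median as a bar. The repressing factors have median percentiles of 34.2 on mannitol, 25.6 on NAA and 50.8 on both; markers of genes at a p of 1 overlap at the top of the small RNA list.

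Leaf polarity genes act with ARF3 and ARF4 in setting the upper and lower leaf sides. Of 9 genes, 0 passed on mannitol, 1 on NAA and 1 on both, near or below the shares over all genes (9.07%, 12.8% and 26.3%). AS1, a MYB protein gene whose product represses ARF3 together with AS2, passed under NAA (adjusted p = 2.5e-06 from the authors' deposited table). PHB, an upper side determinant, passed with both compounds (0.00706 from the authors' deposited table). KAN1, KAN2, AS2, REV, PHV, YAB1 and YAB3 passed in none. Among the genes named in this account as passing, ARF5, ARF7, TPL and AS1 also overlap a gene on the opposite strand, with the same limit as for ARF1.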

How the data were processed

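RNA was sequenced from first leaf pairs in 12 samples, 3 in each of 4 groups, with a stranded poly(A) kit, per the labels. The submitters' processing notes name TAIR10 as the build. No source used here gives the aligner, the counting method or the test. Deposited p-values, 1 column per comparison with control per the file headers, are the only values used. The 24 columns of single libraries match no sample label and were not used, so the planned edgeR quasi-likelihood test on counts was not run. The p-values of 28642 genes were given a Benjamini-Hochberg adjustment per comparison (SciPy 1.17.1, a step tested on simulated data). The 3 comparisons share control samples. The 10 members and 5 further lists (49 loci in all) were chosen with earlier results of these data known; the rule for named genes was to name all 10 members in every comparison and to give values for members of the other lists that passed. Alternatives were no adjustment, Bonferroni adjustment, a threshold of 0.01, adjustment over genes whose p was below 1 throughout, and a Student's t reading with 4 degrees of freedom. Sites, exons and coding sequences come from RefSeq TAIR10.1 (longest coding sequence per gene; global alignment in Biopython 1.88). The depth behind each p-value is not analysed here.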

Additional observations from a re-analysis of the deposited data

How the results depend on the processing

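No adjustment put 1 member past 0.05 under mannitol (ARF2), with 5129 genes in all, and 6243 genes under NAA. Bonferroni adjustment left 698, 948 and 2423 genes under mannitol, NAA and both compounds, with 1 member under NAA (ARF18) and 1 with both (ARF2). A threshold of 0.01 left 2 members under NAA (ARF1 and ARF18). Converting each p to a normal z and reading it from a t distribution with 4 degrees of freedom left 0 members under NAA and 0 with both, and 0 genes in each comparison with a p of 0 set at the lowest z it can mean, or 79, 83 and 610 genes at its highest. Before Benjamini-Hochberg adjustment in SciPy, 4 members under NAA (ARF1, ARF2, ARF4 and ARF18) and 2 with both (ARF1 and ARF2) had a t reading under 0.05, as had 3572 and 6486 of all genes. Of 180 values for single members under these settings, 160 kept their side of the threshold, 18 lost it and 2 gained it. All 18 losses fell on the 4 calls under NAA and the 2 calls with both compounds. Most of the 160 belong to genes that did not pass to begin with, so that count does not measure how stable the calls were. The planned count models, scalings, filters, single comparisons and leaving out libraries were not run. No paired analysis was possible because no column of a single library could be tied to a labelled replicate. What depth limits is not analysed here.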
